A study of Drosophila melanogaster with 2 samples.

Results

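Binding of the CG16779-eGFP fusion protein was examined at 8 genes of the Drosophila melanogaster mesoderm, heart and muscle, out of 13968 protein-coding genes on the chromosome arms. The genes were chosen by name. They are the regulators tin, Mef2, twi and bap, the myoblast fusion gene sns, and the sarcomere genes sls, Mhc and Act57B. The data are peaks from chromatin immunoprecipitation sequencing with an antibody against GFP in whole embryos 8 to 24 hours old of the strain CG16779-GFP, which carries an insertion that expresses the fusion protein. There was a single group with 2 biological replicates, so no comparison between conditions was possible and no test was made. A peak was counted for a gene when its summit lay in the gene body or within 2 kb of either end, a stretch called here the window. The conservative list holds the 2516 peaks on the arms with an irreproducible discovery rate (IDR, the expected share of peaks not ranked reproducibly in a pair of peak sets) of at most 0.01 between the replicates. Each replicate also had its own thresholded list, with 1196 peaks on the arms for replicate 1 and 1244 for replicate 2, and a ranked list of 135475 peaks on the arms held the signals below the threshold. Signal is the value given to a peak by the authors' peak caller, in units not given in the sources used here, and is printed for each replicate and as the mean ± SD (n = 2). Read depth is unknown. Positions are 1-based on dm6. Because whole embryos were used, a weak peak in all cells and a strong peak in few cells cannot be told apart, and no cell type can be read from the data.

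In the fly embryo, Twist, a basic helix-loop-helix protein, sets up the mesoderm and activates tin, whose NK homeodomain protein Tinman directs the heart and the dorsal mesoderm. Tinman in turn activates bap, an NK homeobox gene of the visceral mesoderm, and Mef2 encodes a MADS domain protein needed for the differentiation of all muscle types. Myoblasts then fuse through immunoglobulin domain receptors such as Sns, and the growing fibres switch on genes of the contractile apparatus, among them Mhc (muscle myosin heavy chain), sls (the titin-like proteins Sallimus and kettin) and Act57B (a muscle actin).

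The DNA under the conservative peaks at tin, sls and Mhc is shown because these are 3 of the peaks at the start of a gene. Each sequence runs 5′ to 3′ on the strand of the gene, from the RefSeq reference genome, release 6, and capitals mark matches to the 7 motifs described at the end. For tin it is the whole peak, chr3R:21378631-21378920 on the plus strand, which ends before the TSS. For sls it is the whole peak, chr3L:2115745-2116034 on the minus strand, also upstream of the TSS. For Mhc it is the first 105 bases, chr2L:16766461-16766565 on the plus strand, up to the base before the first TSS, and the remaining 185 bases of the peak are not shown.
tin: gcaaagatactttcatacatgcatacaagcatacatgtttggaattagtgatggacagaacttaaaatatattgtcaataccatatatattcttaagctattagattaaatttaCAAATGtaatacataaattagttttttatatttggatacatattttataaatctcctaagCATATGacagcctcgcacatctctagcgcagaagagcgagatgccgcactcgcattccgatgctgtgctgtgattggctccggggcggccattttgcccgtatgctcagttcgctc
sls: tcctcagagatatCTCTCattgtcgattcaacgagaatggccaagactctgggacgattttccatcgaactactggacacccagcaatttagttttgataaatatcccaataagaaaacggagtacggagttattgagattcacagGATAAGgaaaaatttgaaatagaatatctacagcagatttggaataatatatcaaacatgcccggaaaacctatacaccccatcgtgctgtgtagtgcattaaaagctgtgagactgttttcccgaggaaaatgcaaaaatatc
Mhc: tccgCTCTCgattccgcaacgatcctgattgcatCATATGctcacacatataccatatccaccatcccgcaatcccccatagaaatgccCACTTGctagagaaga
The tin sequence holds 2 E-boxes, CAAATG and CATATG, centred 29 and 31 bp from the summit on either side of it. In the sls sequence a GATAAG lies 5 bp from the summit. A CATATG is also present in the Mhc sequence, 109 bp from the summit. The CTCTC near the start of the sls and Mhc sequences is GAGAG read on the other strand.

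Conservative summits were present at 5 of the 8 genes, tin, Mef2, sns, sls and Mhc, and absent from the windows of twi, bap and Act57B. Over all protein-coding genes, 23.9% had a summit in the window. Long windows hold more summits, and the share rose from 16.1% of 6532 genes with windows under 6 kb through 24.1% of 4468 genes at 6 to 10 kb and 34.6% of 1662 genes at 10 to 20 kb to 47.8% of 1306 genes at 20 kb and over. Of the 5 long members (Mef2, twi, sns, sls and Mhc, all at 20 kb and over) 4 had a summit. Of the 3 short ones (tin and Act57B at 6 to 10 kb, bap under 6 kb) only tin had one. A summit within 500 bp of a TSS of the gene was present at 5 of the 8 genes and at 11.3% of all protein-coding genes. Among genes with a summit in the window, that was 5 of 5 members and 47.5% of 3332 genes. With so few genes these counts describe the members and are no evidence that mesoderm genes as a class stand apart.

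**Figure D1:**
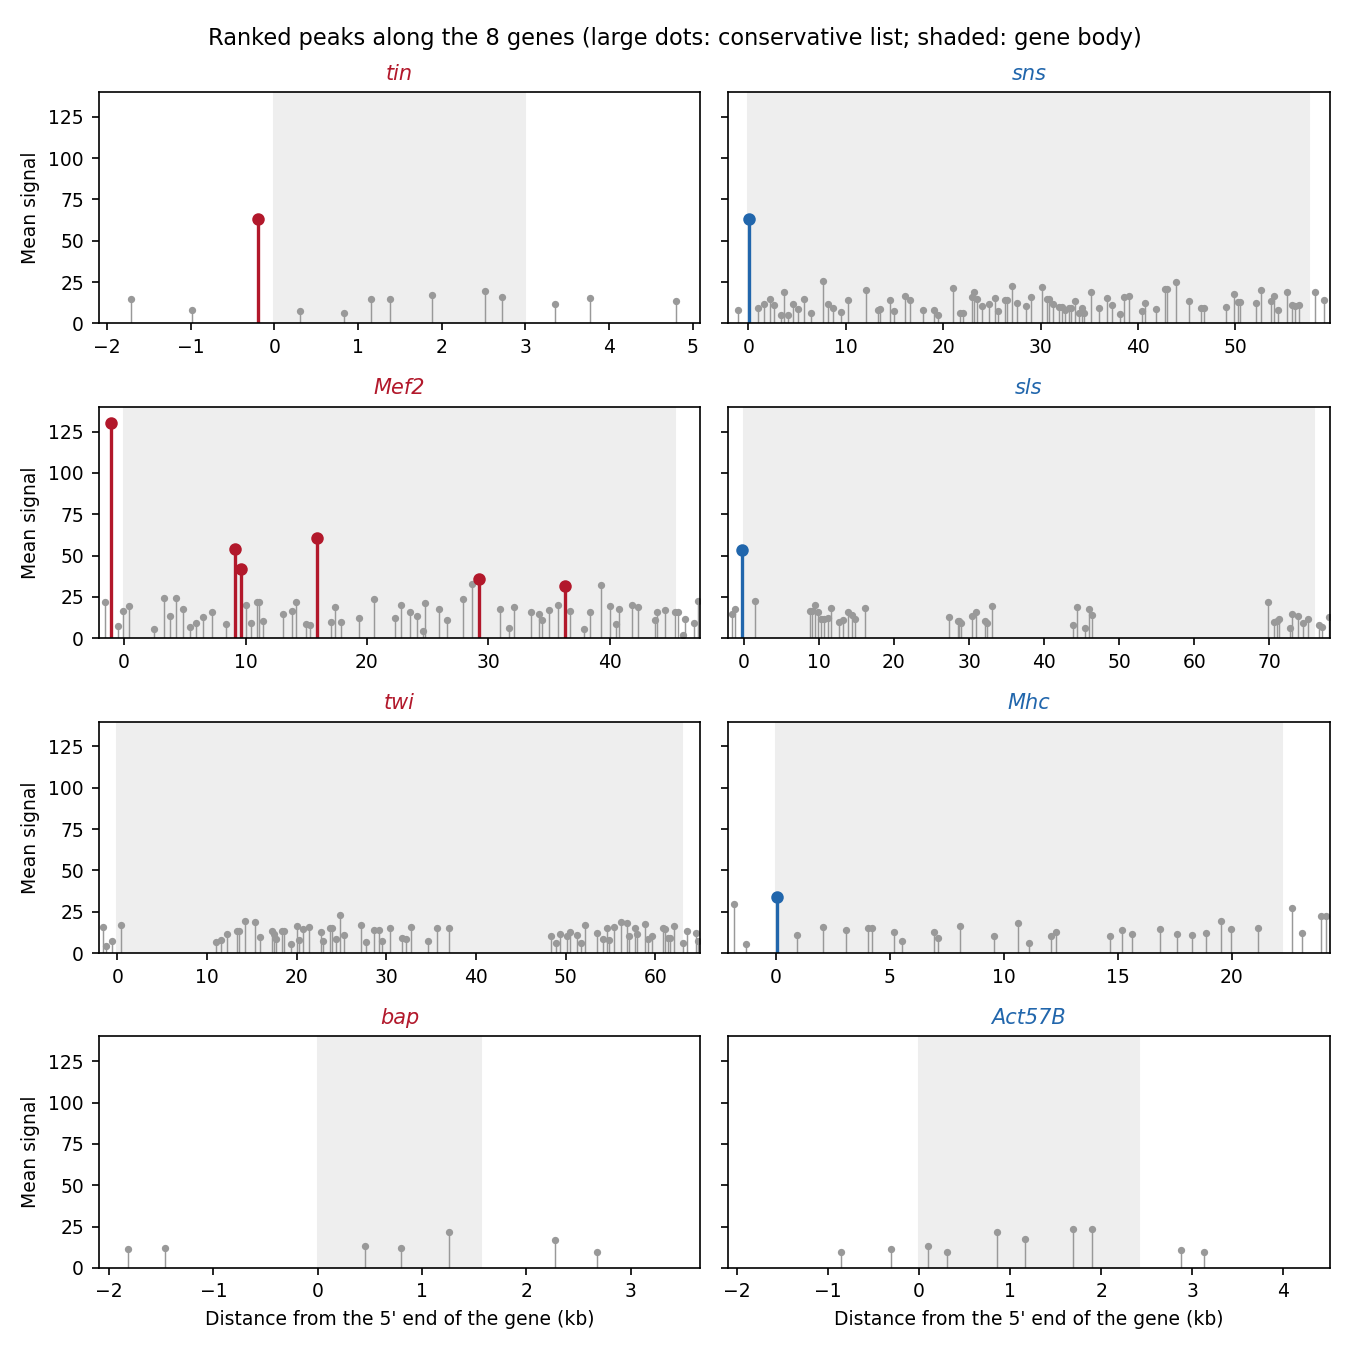
Mean signal of the 2 replicates (vertical axis, peak caller's units) for every ranked peak in the windows of the 8 genes, against its distance from the 5′ end of the gene in kb, with the gene body shaded and conservative peaks drawn as large dots (red for regulators, blue for fusion and sarcomere genes). The only conservative peaks of tin, sns, sls and Mhc stand at the left edge of the gene, whereas the 6 of Mef2 are spread along it and none appears for twi, bap or Act57B.

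At tin, the heart and dorsal mesoderm regulator (FBgn0004110, 3R, 21378977 to 21381970, plus strand), the single conservative peak was the stretch printed above, with its summit 201 bp upstream of the only annotated TSS. Its signal was 70.5 in replicate 1 and 55.5 in replicate 2 (63.0 ± 10.6), 1.27 times as high in replicate 1, and the IDR between the replicates was 0.000412. Both replicates called it in their own list, with summits 194 and 206 bp upstream of the TSS. A further 12 ranked peaks lay in the window, and the strongest of these, in a coding exon 2524 bp into the gene, reached 22.3 and 17.6, well below the promoter peak in each replicate. The tin summit also lay in the window of the neighbouring insulator protein gene mod(mdg4), 1375 bp upstream of its nearest TSS.

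Mef2 (FBgn0011656, 2R, 9913496 to 9958858, minus strand) had 6 conservative summits, the most of the 8 genes, over a window of 49363 bp, and 3 in the own list of either replicate. Of all protein-coding genes, 12 (0.0859%) had at least 6, and 7 of those 12 had a longer window than Mef2. For 5 of the 6 summits the nearest TSS was that of Mef2. At least 5 summits in the window, whatever their nearest TSS, were present at 22 genes (0.1575%). The counts and density of Mef2 include all 6. In summits per length of window, Mef2 had 1.22 per 10 kb, against 0.183 per 10 kb over all arms. Of the 1306 genes with windows of 20 kb and over, 24 (1.84%) were at or above the Mef2 value.

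The strongest peak in the Mef2 window (9959927 to 9960006) had signals of 129 and 132 (130 ± 1.83), which 4.41% of conservative peaks exceeded. It lay 1079 bp upstream of the first Mef2 TSS, but only 141 bp from a TSS of Pal1 and 205 bp from that of Pdrg1, so among member peaks it is the one whose nearest TSS belongs to another gene. The remaining 5 had Mef2 as the nearest gene, with mean signals from 31.7 to 60.4.

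Among these, a peak whose summit lay in a 5′ UTR 1778 bp downstream of the middle TSS (9942841 to 9943130) gave 52.9 in replicate 1 and 67.9 in replicate 2 (60.4 ± 10.6). A pair of intronic peaks stood 529 bp apart, 4976 and 4447 bp upstream of the middle TSS. The more distal one (9949595 to 9949884) gave 67.3 and 41.2 (54.2 ± 18.5) and the other (9949066 to 9949355) gave 33.6 and 50.1 (41.8 ± 11.7), so each replicate ranked a different one of the pair higher. In their own lists, replicate 1 called the first of the pair and replicate 2 the second.

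The last 2 Mef2 peaks were weaker. One sat 13 bp from the innermost TSS (9929483 to 9929772, 37.5 and 34.6, 36.1 ± 2.11), and the other in an intron 7060 bp downstream of that TSS (9922410 to 9922699, 34.1 and 29.3, 31.7 ± 3.44). Neither was in the own list of a replicate, and the IDR of the second, 0.00991, was just inside the limit. By the mean of the replicates 98.9% of conservative peaks were stronger than the second, and by the signal of the conservative list itself 69.2% were. Just outside stood a peak in a coding exon 10010 bp downstream of the innermost TSS (9919460 to 9919749, 27.8 and 36.4, IDR 0.0113) and nearest to Etf-QO, which the list from pooled reads included. That list also held an intronic peak 580 bp upstream of the innermost TSS (9930050 to 9930339, 41.7 and 24.1, IDR 0.0218) and left out the one at 9922410.

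**Figure D2:**
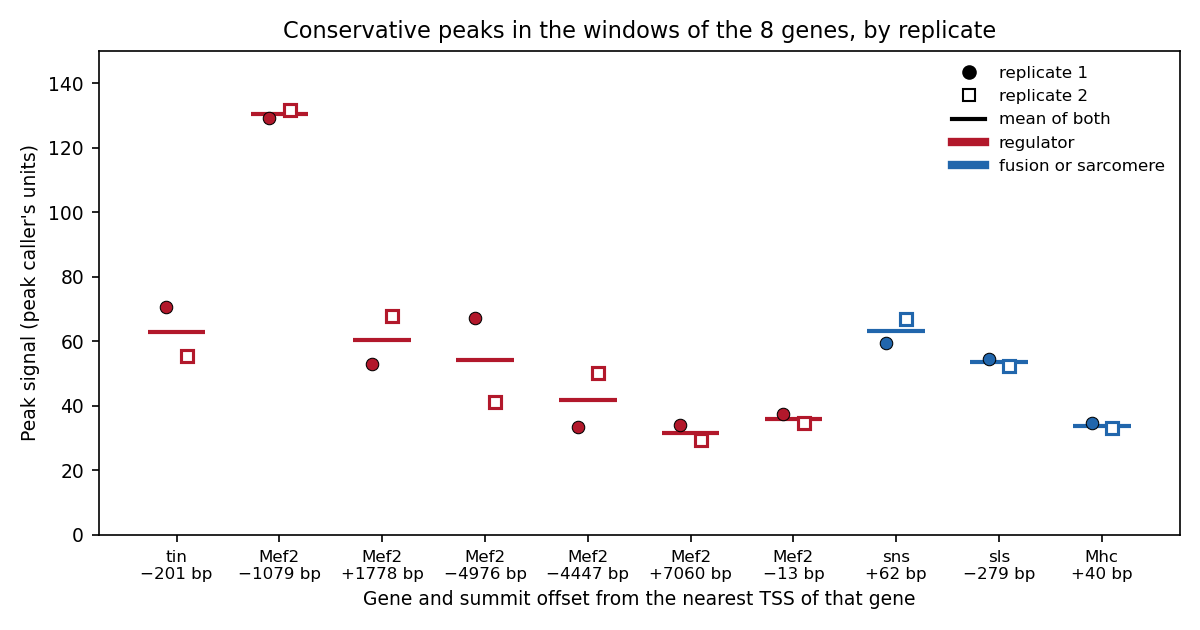
Signal of the 10 conservative peaks of the 8 genes (vertical axis, peak caller's units) in replicate 1 (filled circles) and replicate 2 (open squares), with the mean of both as a bar, for regulators in red and fusion and sarcomere genes in blue, each labelled with the offset of its summit from the nearest TSS of that gene. The Mef2 peak next to Pal1 stands at 130, above the other 9 at 31.7 to 63.2, and the replicates are farthest apart at the intronic Mef2 peak with 67.3 and 41.2.

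At twi (FBgn0003900, 2R, 22985374 to 23048325, plus strand), none of the 71 ranked peaks passed in any of the 4 thresholded lists. The annotated gene spans 62952 bp because of 1 long transcript, while the other two transcripts are 2218 and 2004 bp long and lie at its 3′ end. Its strongest ranked peak, in an intron 24804 bp from the nearest TSS (23010033 to 23010322), had signals of 28.5 and 17.4 (22.9 ± 7.89, IDR 0.160). Of the genes with windows of 20 kb and over, 84.9% had a stronger best peak.

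At bap (FBgn0004862, 3R, 21388880 to 21390449, plus strand), which lies 6909 bp downstream of tin, 7 ranked peaks were present and none was thresholded in any list. The strongest, in a coding exon (21389993 to 21390282), gave 25.1 and 18.2 (21.6 ± 4.87, IDR 0.146). Between the end of tin and the start of bap the list held 8 ranked peaks, with a highest mean signal of 15.5, and 0 conservative ones. In the windows of this pair of NK homeobox genes and the interval between them, the tin peak was the only conservative one.

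The fusion gene sns (FBgn0024189, 2R, 8798489 to 8856091, plus strand), which encodes a receptor of fusion-competent myoblasts, had 1 conservative summit, 62 bp downstream of its only TSS in the 5′ UTR (8798406 to 8798695). Signals were 59.5 and 66.9 (63.2 ± 5.21, IDR 0.000394), close to those of tin. Replicate 2 called the peak in its own list. In the own ranked list of replicate 1 its IDR was 0.0160, above the limit of 0.01, although at 59.5 its signal there was higher than the 54.6 of the sls peak, which passed with 0.00179. Among the 88 ranked peaks of sns the second strongest, in an intron 7635 bp from the TSS, reached 21.2 and 30.1.

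Of the sarcomere genes, sls (FBgn0086906, 3L, 2039681 to 2115611, minus strand) had 1 conservative peak, the stretch printed above, with the summit 279 bp upstream of its only TSS. The replicates gave 54.6 and 52.3 (53.5 ± 1.66, IDR 0.000733), and both called it in their own list. The gene zormin, another sarcomere gene, also had this summit in its window, 35810 bp from its nearest TSS. The sls window as a whole was poor in ranked peaks, with 5.51 per 10 kb against 9.85 over all arms. It included a stretch of 23.4 kb without any, which 8.50% of windows of 20 kb and over equalled or exceeded. That base includes windows too short to hold such a stretch. One ranked peak in an intron 1548 bp downstream of the TSS was seen mostly in replicate 2, with 39.9 against 4.70 in replicate 1 (IDR 0.551).

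Mhc (FBgn0264695, 2L, 16766566 to 16788766, plus strand) had the weakest of the promoter peaks by the mean of the replicates. Its summit lay 40 bp downstream of the first of its 5 TSSs (16766461 to 16766750). The signals of 34.6 and 33.2 (33.9 ± 0.966, IDR 0.00574) were nearly equal, yet neither replicate called the peak alone, and the list from pooled reads lacked it. In the conservative list 86.3% of peaks were stronger by the mean of the replicates, and 75.5% by the signal of the list itself. By that list signal the Mef2 peak on its innermost TSS was the weaker of the 2 (67.9 against 70.8 for Mhc). Another ranked peak, 1839 bp upstream, gave 37.9 and 21.1 (29.5 ± 11.9) and missed the limit with an IDR of 0.0535.

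Act57B (FBgn0000044, 2R, 20944021 to 20946431, plus strand) had 10 ranked peaks and none in a thresholded list. The strongest, in a coding exon 1693 bp from the TSS (20945569 to 20945858), gave 19.5 and 27.96 (23.8 ± 5.95, IDR 0.101). A ranked peak overlapping it (20945776 to 20946065, 1900 bp from the TSS) carried the same values. Overlapping ranked peaks that share values were each counted. The best level of Act57B lay close to those of twi and bap, and the SDs of the 3 genes overlapped.

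Regulators and fusion or sarcomere genes thus did not separate by presence of a peak, with 2 of 4 and 3 of 4 genes. The windows of the 4 regulators, 128.9 kb in all, held 7 conservative summits (0.543 per 10 kb), and those of the 4 others, 174.1 kb, held 3 (0.172 per 10 kb, against 0.183 over all arms). The higher number of summits rested on Mef2. Without it the regulators held 1 summit in 79.5 kb (0.126 per 10 kb). Most of that length was the twi window of 66952 bp. With 1 summit in its short window of 6994 bp, tin had 1.43 per 10 kb, against 1.22 for Mef2. In place, too, Mef2 stood apart from the other genes rather than the regulators from the rest. The 4 peaks of tin, sns, sls and Mhc lay 40 to 279 bp from a TSS of their own gene. Of the 6 Mef2 peaks 1 lay within 500 bp of a Mef2 TSS and the others 1079 to 7060 bp away. The one at 1079 bp is the peak 141 bp from a TSS of Pal1. Apart from it, the Mef2 peaks beyond 500 bp lay 1778 to 7060 bp away. The median strength of the best ranked peak per gene was 43.0 for the regulators and 43.7 for the others, against 25.7 over all protein-coding genes. Without Mef2 the median of the regulators was 22.9, that of twi, since of tin, twi and bap only tin was high. In order of the best peak the genes ran Mef2, sns, tin, sls, Mhc, Act57B, twi and bap. Without the peak next to Pal1 the best of Mef2 was 60.4, which put it behind sns and tin. Sns and tin did not differ beyond their SDs, nor did the last 3, and sls lay within 1 SD of tin. The SDs of sls (53.5 ± 1.66) and sns (63.2 ± 5.21) did not overlap. An SD of 2 values is only a rough guide, and no difference between genes was tested.

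**Figure D3:**
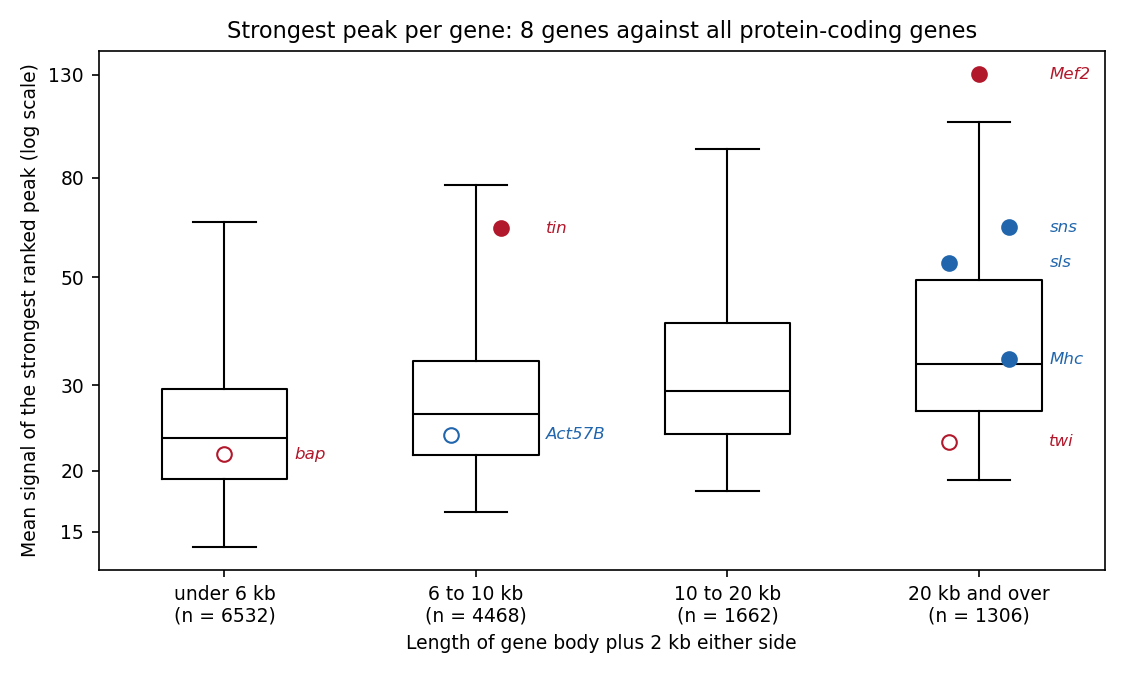
Mean signal of the strongest ranked peak in the window of each of the 8 genes (points, log scale, peak caller's units; filled where that peak is in the conservative list) beside all protein-coding genes of the same window length (box from the 25th to the 75th percentile, line at the median, whiskers from the 5th to the 95th). Mef2 lies above the 95th percentile of its class through its peak next to Pal1, and without that peak would stand at 60.4, below it, while tin, sns and sls lie above the box, and twi lies below the box of its class.

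Against genes with windows of like length, the best peak of Mef2 was exceeded by 2.83% of genes, or by 15.8% when its peak next to Pal1 was left out and the other genes kept all of theirs. The best peak of tin was exceeded by 7.52%, of sns by 14.1%, of sls by 20.4% and of Mhc by 46.3%. For the genes without a conservative summit the shares were 55.1% (bap), 60.8% (Act57B) and 84.9% (twi).

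Replicates on their own called fewer of these genes. Replicate 1 called tin, Mef2 and sls, where 13.3% of protein-coding genes had a summit in its list, and replicate 2 called tin, Mef2, sns and sls, where 13.7% did. Present in both lists were tin, Mef2 and sls, as were 9.89% of all protein-coding genes. The list from pooled reads held summits at tin, Mef2, sns and sls, and at 24.7% of protein-coding genes. Of the 10 conservative member peaks, 4 were matched, by a summit no more than 100 bp away, in the lists of both replicates (tin, sls and the Mef2 peaks next to Pal1 and in the 5′ UTR), 3 in one of these lists (sns and the intronic pair of Mef2) and 3 in neither. The matching shares of the whole conservative list are not given here. These 3 counts therefore do not show whether the member peaks are typical of it. The log2 ratio of replicate 2 to replicate 1 ranged from -0.71 to 0.58, inside or near the -0.69 to 0.72 that spanned the 5th to 95th percentile of the conservative list. Signal was higher in replicate 2 for 4 of the 10 peaks, so neither replicate was uniformly stronger.

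Other genes of these tissues were examined in 7 lists by role with 71 genes in all. A conservative summit lay in the window of 20 of them (28.2%), near the background of 23.9%. The windows of 26 of these genes were 20 kb or longer, and 13 of those had a summit, near the 47.8% for that length. Among regulators, summits were found at 3 of 9 mesoderm regulators, 2 of 11 heart regulators and 1 of 10 muscle identity genes. For structural genes, 5 of 12 fusion genes, 2 of 7 thick filament genes, 2 of 11 thin filament genes and 5 of 11 genes of the Z-disc and muscle attachment had one. Regulatory lists together had a summit at 6 of 30 genes and structural lists at 14 of 41, with median windows of 12.7 and 14.9 kb. Windows of 20 kb and over made up 9 of the 30 and 17 of the 41, and 3 and 10 of these held a summit. A summit within 500 bp of a TSS was present at 5 of the 71, against 11.3% of protein-coding genes.

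**Figure D4:**
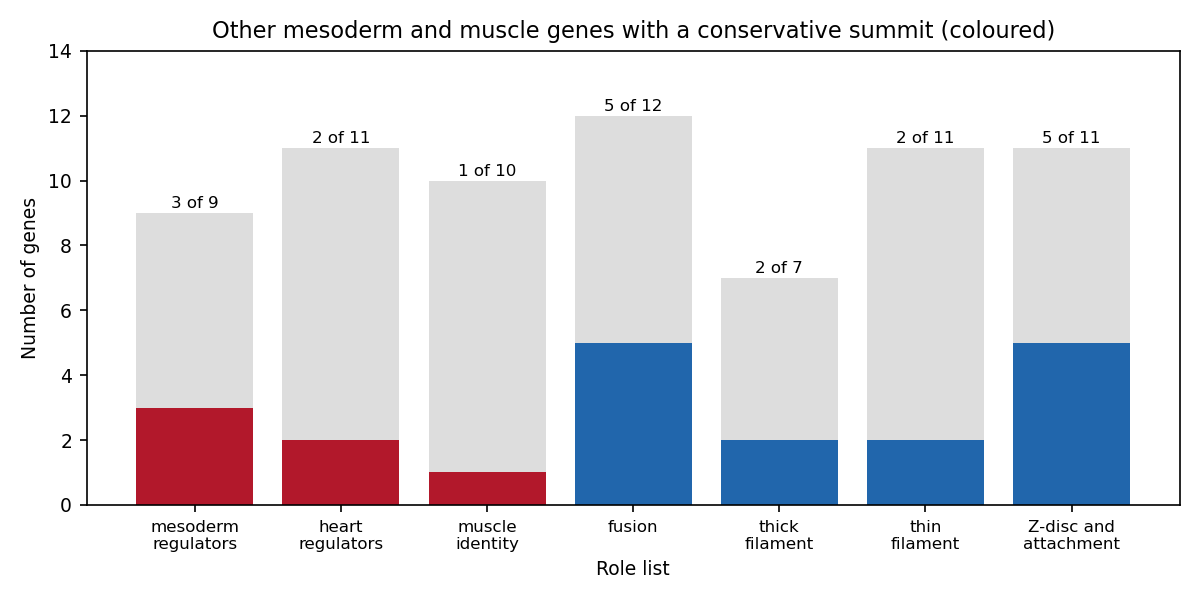
Number of genes in each of 7 role lists (grey bars, full height) and number with a conservative summit in the window (coloured part, red for regulatory and blue for structural lists). The counts run from 1 of 10 muscle identity genes to 5 of 11 genes of the Z-disc and attachment, and no list has a summit at more genes than not.

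The strongest of these peaks lay in an intron of Msp300, a nesprin that anchors muscle nuclei (2L, 5108135 to 5108233, 109 ± 7.57), 304 bp from a TSS. It was followed by zfh1, a zinc finger homeodomain regulator of the mesoderm (3R, 30781654 to 30781943, 87.0 ± 5.54, in an intron 1459 bp from a TSS), and by kirre, the partner receptor of Sns on founder cells (X, 2786704 to 2786788, 81.9 ± 12.7). The kirre peak lay in an intron 45929 bp from a TSS of kirre and nearest to one of CG32795. Next came tmod, the pointed-end cap of thin filaments (3R, 30540250 to 30540539, 80.9 ± 6.61), and tup, a LIM homeodomain heart regulator (2L, 18857622 to 18857911, 72.2 ± 10.3), whose peak lay beyond its 3′ end and nearest to CG10602. The T-box gene org-1 of the visceral mesoderm had a peak 344 bp upstream of a TSS (X, 8455268 to 8455557, 65.2 ± 13.4).

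Weaker peaks stood at the integrin gene if (X, 16751833 to 16752122, 57.5 ± 6.02, nearest to goe), at the fusion genes Vrp1, an actin regulator (2R, 22122491 to 22122780, 51.3 ± 14.4), and mbc, which acts on Rac (3R, 23783180 to 23783469, 47.8 ± 8.38), and at the integrin gene mys (X, 8061481 to 8061770, 47.0 ± 4.30), 19 bp from a TSS. Myofilin, Mf (3R, 15173996 to 15174285, 44.4 ± 14.2), and the talin gene rhea (3L, 8547120 to 8547409, 43.5 ± 2.60) completed the 12. The other 8 genes with a summit had mean signals from 32.7 to 41.1, and the heart regulator pnr was the strongest of them. More than 1 summit was present at kirre, Msp300, zfh1, tup, mbc and Zasp52. There were 4 at kirre, in a window of 398149 bp, and 2 at each of the others. None of those at kirre, zfh1, tup and Zasp52 lay within 500 bp of a TSS of the gene, unlike at Msp300 and mbc.

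Genes elsewhere in the genome were picked for peaks of like strength in both replicates, so their closeness follows from the choice. The measure was Euclidean distance over the log2 signals of the 2 replicates, among 3332 genes with a conservative summit. ASPP (131 and 128) and prage (129 and 136) were among the 3 nearest to the strongest Mef2 peak, the one next to Pal1. Nearest to sns were Phyhd1 (58.9 and 67.9) and the pair Brd7-9 and CG7164, which share a peak (60.3 and 65.5), and nearest to tin were CG4301 and CG9981, which share a peak (69.2 and 55.1), and CG4291 (68.9 and 55.1).

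Matches to 7 motifs were looked for on either strand in the 50 bp to each side of a summit, and a match is a description of the letters and not of a bound factor. An E-box, CANNTG, was present at 3 of the 10 member summits (tin, the 5′ UTR peak of Mef2 and Mhc) and at 38.3% of conservative summits. At Mhc the match counted here lies in the part of the peak not shown, and the E-boxes marked above are farther from the summit. The special case CATATG, a form bound by Twist, overlaps with the E-box by definition and was present at 1 summit, that of tin, and at 3.14% of the list. GATAAG was found at 2 summits (the distal peak of the intronic Mef2 pair, and sls) and at 4.81% of the list. The NK-2 class motif TNAAGTG, of the type bound by Tinman, was at 0 of the 10 and 6.52% of the list, and the MEF2 consensus at 0 and 3.26%. GAGAG (0 and 15.1%) and the DREF element TATCGATA (0 and 1.59%) were likewise not matched in these windows. Base composition varied widely among the members. GC content within 50 bp of the summit ran from 24.8% at tin, lower than at 95.4% of conservative summits, through 29.7% at sls and at the Mef2 peak next to Pal1, to 49.5% at Mhc, 58.4% at the Mef2 peak on its innermost TSS and 61.4% at sns, against a median of 44.6% in the list. The peaks at tin and sls had their summits upstream of the TSS and the peak at sns in the 5′ UTR. These promoter peaks thus stood on sequences from opposite ends of the range of GC.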

How the data were processed

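Peak lists from 2 biological replicates of anti-GFP chromatin immunoprecipitation were used as deposited by the authors. Per the labels, fragments after sonication measured 200 to 800 bp, and dm6 was the assembly. For the aligner, peak caller, control treatment and read depth, names and values are not given in the sources used here. The deposited signal (column 7) is the peak caller's own value, and the deposited −log10 of the IDR was converted to an IDR. Summit offsets were added to peak starts.

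Replicate signals in the ranked list were assigned by exact coordinates to the own ranked list of each replicate (106023 and 106751 of 135475 peaks, 0 to the other replicate), which held all member peaks printed. Genes came from Ensembl release 115 and sequence from genome release 6, whose arms were longer than the last annotated base. All 71 symbols matched, 2 through a synonym (Arf6 and Obsc). Windows were counted in Python 3.11.15 with pandas 2.3.3, and counting was tested on simulated data.

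The members and lists were chosen with earlier results of these data known. Named genes were the members, the 12 list genes with the highest mean signal, and the 3 nearest genes by signal to each of the 3 strongest members. One gene that this rule names is not reported here. Alternatives covered flanks of 0, 1 and 5 kb, other lists, peak overlap and assignment to the nearest TSS.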

Additional observations from a re-analysis of the deposited data

How the results depend on the processing

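Without any flank, 3 members kept a summit (Mef2, sns and Mhc, since those of tin and sls are upstream), 1 of them a regulator, 1 member was called by both replicates separately, and 13 other mesoderm and muscle genes and 1350 protein-coding genes had a summit. Flanks of 1 and 5 kb, the list from pooled reads and overlap by any base of the peak moved none of the counts of genes or summits over the members or lists by more than 1.5 times. At the level of single genes the pooled list and the 1258 strongest peaks of the conservative list lost Mhc. With the own list of a single replicate, which leaves the other replicate out, the counts ranged from 3 to 4 members, 2 regulators in both, 1 to 2 fusion and sarcomere genes, 4 regulator summits in both, 1 to 2 summits at fusion and sarcomere genes, 10 to 11 other genes and 1863 to 1917 protein-coding genes. The own list of replicate 1 lost sns and Mhc, that of replicate 2 lost Mhc, and Mef2 kept 3 summits in each. Those 1258 peaks left 12 other genes and 1977 protein-coding genes, and assignment to the nearest TSS 12 and 1790. In whole peaks instead of 101 bp windows, motif matches rose by construction. They were then present in 1 of the 10 member peaks for NK-2, 6 for the E-box, 2 for CATATG and 4 for GAGAG. Of the 2516 conservative peaks, 431 held a match for NK-2, 1887 for the E-box, 197 for CATATG and 994 for GAGAG. Within 50 bp instead of 100, 2 member peaks were in both own lists. Signals in the conservative list are on the scale of both replicates together and were higher for all 10 peaks. Leaving out the Mef2 peak next to Pal1, an alternative chosen after seeing the data, raised the share of genes with long windows and a stronger best peak from 2.83% to 15.8%. Unknown depth and 2 replicates limit every value.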
